A study of Homo sapiens with 6 samples.

Results

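The 39 genes described here, of 17787 gene symbols listed in the series, encode proteins of the centromere and kinetochore, except CENPJ. CENPJ shares the family name but encodes a centriole protein. The other genes were picked by symbol, from the known composition of these structures. All 39 symbols were listed in each of the 6 libraries, and 38 of them were among the 12555 genes tested. RNA was sequenced from A549, a cell line grown from a human lung adenocarcinoma. The first group, siFOXD3, holds 3 libraries named for a small interfering RNA against FOXD3, a forkhead transcription factor. The second, siNC, holds 3 libraries that carry the genotype label wild type and serve as the control. Neither the siRNA sequences, the dose nor the time of harvest is given in the sources used here, and nothing says that the replicates were separate cultures, so p-values measure the spread between these libraries, which may be technical.

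The centromere is the stretch of chromosome marked by nucleosomes that carry CENPA in place of ordinary histone H3, and the kinetochore is the protein assembly built on it in mitosis. Its inner layer, the constitutive centromere-associated network or CCAN, sits on the CENPA nucleosome through CENPC and CENPN. CENPC and CENPT recruit the outer layer, made of the KNL1, MIS12 and NDC80 complexes, and the NDC80 complex grips the microtubule. The SKA complex steadies that grip, the RZZ complex and the checkpoint proteins delay anaphase until every chromosome is attached, the chromosomal passenger complex corrects wrong attachments, and the shugoshins guard cohesion at the centromere. Messages of many of these genes are made mainly in the G2 and M phases of the cell cycle, so their level in a culture depends on how many cells are dividing.

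Many promoters of genes expressed in G2 and M carry a cell cycle homology region (CHR), to which MuvB-type complexes bind, and CCAAT boxes, to which NF-Y binds. RefSeq promoter windows (GRCh38.p14, from 250 bases before to 50 bases after a transcript start) were matched for 32 of the 39 genes, giving 37 windows, since a few genes have several starts, some with overlapping windows. The CHR letters TTTGAA or TTCGAA, on either strand, stood in 18 of the 37 windows (48.6%), against 11.7% of 12923 windows of tested genes and 16.4% of all 35116 windows. CCAAT, on either strand, stood in 24 (64.9%), against 34.5% and 34.6% of those sets. The E2F letters TTGGCGC or TTCCCGC, on either strand, stood in 10 (27.0%), against 13.6% and 9.23%. Both a CHR and a CCAAT were present in 13 windows (35.1%), against 4.73% and 6.38%. The 4 sequences below are the 250 bases before the start, 5′ to 3′ on the strand of the gene, of the genes with the largest fold changes among those with both motifs in that stretch. Capitals mark the CHR and CCAAT letters, which read TTCAAA or TTCGAA and ATTGG where they lie on the opposite strand.
ZWINT: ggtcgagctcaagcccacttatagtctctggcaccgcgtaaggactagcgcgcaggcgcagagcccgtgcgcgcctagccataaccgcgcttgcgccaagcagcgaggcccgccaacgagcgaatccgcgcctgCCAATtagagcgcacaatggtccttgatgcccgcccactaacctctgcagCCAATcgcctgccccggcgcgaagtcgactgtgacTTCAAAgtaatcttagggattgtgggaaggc
CDCA8: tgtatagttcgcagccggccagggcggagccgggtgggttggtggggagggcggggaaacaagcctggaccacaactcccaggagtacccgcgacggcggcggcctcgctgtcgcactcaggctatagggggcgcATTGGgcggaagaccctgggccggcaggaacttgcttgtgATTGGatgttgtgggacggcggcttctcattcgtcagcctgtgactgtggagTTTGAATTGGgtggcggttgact
CENPA: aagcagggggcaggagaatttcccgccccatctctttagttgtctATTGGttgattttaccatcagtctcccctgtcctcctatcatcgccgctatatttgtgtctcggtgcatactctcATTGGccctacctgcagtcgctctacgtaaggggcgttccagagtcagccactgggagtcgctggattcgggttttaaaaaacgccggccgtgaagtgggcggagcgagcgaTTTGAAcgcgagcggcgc
SPC25: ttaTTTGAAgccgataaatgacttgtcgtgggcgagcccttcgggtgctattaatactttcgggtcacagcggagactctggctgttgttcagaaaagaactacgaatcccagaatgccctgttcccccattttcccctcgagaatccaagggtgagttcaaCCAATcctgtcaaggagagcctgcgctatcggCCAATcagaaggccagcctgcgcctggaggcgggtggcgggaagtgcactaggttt
The stretches lie at chr10:56361260-56361509 (minus strand) for ZWINT, a partner of the KNL1 scaffold, at chr1:37692266-37692515 (plus strand) for CDCA8, the passenger subunit borealin, at chr2:26785806-26786055 (plus strand) for CENPA, and at chr2:168890431-168890680 (minus strand) for SPC25 of the NDC80 complex. The CHR ended 26 bases before the start in ZWINT, 18 in CDCA8 and 13 in CENPA, and 242 in SPC25, where it is farther from the start than both CCAAT boxes. In CDCA8 the CHR runs into a CCAAT box read on the other strand and shares its last base with it. These are letter matches in a window and not measured binding.

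Per library, FPKM (fragments scaled to transcript length and library size) summed to values between 596623 and 618389, and steps between low values gave an estimated 7440000 to 8780000 fragments. FOXD3 itself was listed at 0.0749 FPKM in siFOXD3 replicate 2 and at 0 in replicates 1 and 3, against 0.152, 0.291 and 0.134 FPKM in siNC replicates 1, 2 and 3, all close to the detection limit. The protocol label names retina as the source, while the cell type label names A549. The 5 epithelial markers KRT8, KRT18, KRT19, EPCAM and CDH1 summed to 7215 to 7277 FPKM in siFOXD3 and 5051 to 6021 FPKM in siNC, mostly from KRT8 and KRT18. KRT8, KRT18 and EPCAM rose, KRT19 was not called, and CDH1 fell, with 41.3 FPKM in siFOXD3 and 48.2 FPKM in siNC on average (limma adjusted p = 0.00355). Of 10 photoreceptor markers none reached 1 FPKM in any library and 4 were at 0 in all, with sums of 0.834 to 1.29 FPKM in siFOXD3 and 0.739 to 1.22 FPKM in siNC. Of 7 leukocyte markers 3 reached 1 FPKM, with sums of 67.4 to 68.5 FPKM in siFOXD3 and 74.5 to 84.8 FPKM in siNC, nearly all of it CD68. The low ones fell further than that sum: LAPTM5 averaged 0.210 FPKM in siFOXD3 and 2.06 FPKM in siNC (-1.34 on the log2 scale, limma adjusted p = 4.45e-06), and CD14 averaged 1.25 FPKM in siFOXD3 and 2.92 FPKM in siNC (-0.80, adjusted p = 0.000703). Of 6 fibroblast markers 1 reached 1 FPKM and 2 were at 0 throughout (sums of 2.96 to 3.58 FPKM in siFOXD3 and 3.61 to 4.56 FPKM in siNC), and of 4 endothelial markers 1 did (1.87 to 2.18 FPKM in siFOXD3 and 2.55 to 3.40 FPKM in siNC). The part of these marker differences in the results was not tested.

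Most centromere and kinetochore messages were higher in siFOXD3 libraries. Of the 38 genes tested, a limma fit adjusted by Benjamini-Hochberg across the 12555 genes called 30 higher, 1 lower and 7 neither way at an adjusted p under 0.05. Of all genes tested 65.9% were called, 27.2% higher and 38.7% lower. Their median log2 fold change, on the log2(FPKM + 1) scale, was 0.60, beside -0.08 for all genes tested, a distance of 0.68. With at least 0.5 on that scale 22 were called higher (11.2% of all genes tested), and with at least 1 there were 6 (1.74% of all genes tested): CENPE, CENPF, BIRC5, ZWINT, CENPI and SGOL2. Against a fold of 1.2, limma's treat test called 24 higher and none lower, where it called 12.9% of all genes higher and 21.3% lower. In these bulk libraries more dividing cells and more RNA per dividing cell cannot be told apart. The general division markers MKI67 (40.4 ± 0.958 FPKM in siFOXD3 and 17.3 ± 0.297 FPKM in siNC, mean ± SD, n = 3 each) and TOP2A (71.2 ± 1.68 FPKM in siFOXD3 and 42.9 ± 4.69 FPKM in siNC, n = 3 each) moved with these genes, and their part in the result was not tested.

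**Figure D1:**
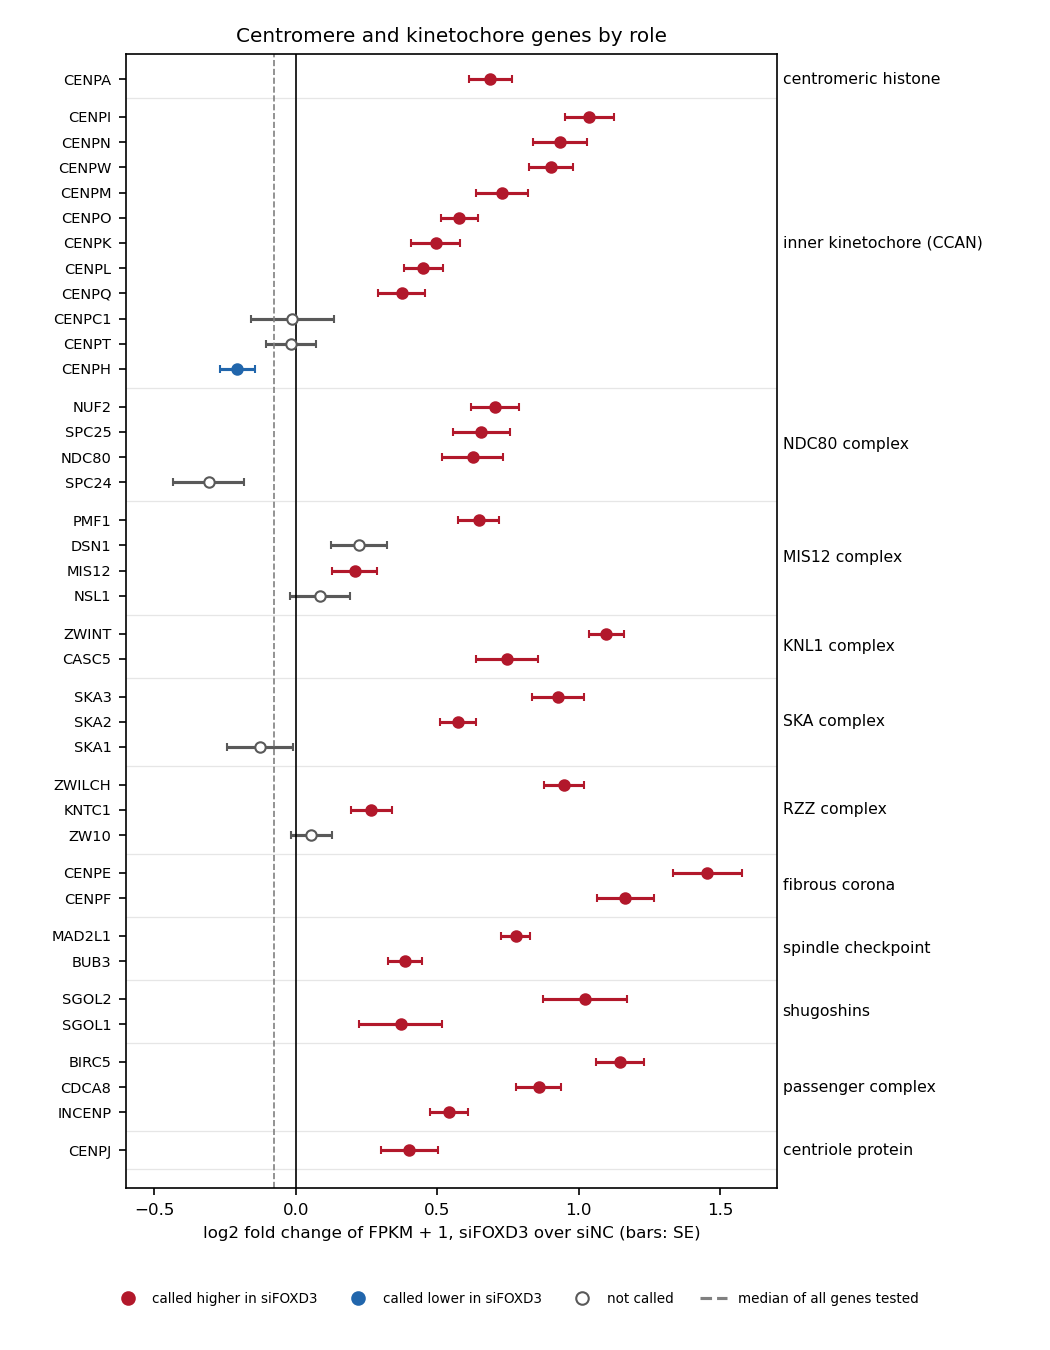
Log2 fold change of FPKM + 1 (horizontal axis, siFOXD3 over siNC, bars are SE from limma, n = 3 libraries a group) for the 38 genes tested, grouped by role; red marks genes called higher, blue lower and open circles genes not called. The fibrous corona genes CENPE (1.45) and CENPF (1.16) lie farthest right and SPC24 (-0.31) and CENPH (-0.21) farthest left of the dashed line, which marks the median of all genes tested (-0.08).

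Summed over the 39 genes, the level was 909.95, 879.8 and 870.1 FPKM in siFOXD3 replicates 1, 2 and 3, against 563, 548 and 524 FPKM in siNC, a ratio of 1.63. In siFOXD3 the highest levels were those of CENPW (113 ± 6.39 FPKM), ZWINT (95.2 ± 3.12 FPKM) and BUB3 (86.7 ± 3.13 FPKM), whose 3 values did not overlap between neighbours in this order. BIRC5 (59.0 ± 0.805 FPKM) and MAD2L1 (56.9 ± 2.32 FPKM) followed with overlapping values (SD, n = 3). In siNC the order began with BUB3 (66.3 ± 4.97 FPKM) and CENPW (60.0 ± 6.79 FPKM), whose values overlapped, and went on with ZWINT (44.0 ± 3.40 FPKM), MAD2L1 (32.8 ± 0.535 FPKM) and BIRC5 (26.3 ± 3.79 FPKM). CENPP, NSL1, CENPC1 and SGOL1 were under 3 FPKM on average in both groups. The median coefficient of variation within a group was 6.28% in siFOXD3 and 9.01% in siNC over the 38 genes tested.

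**Figure D2:**
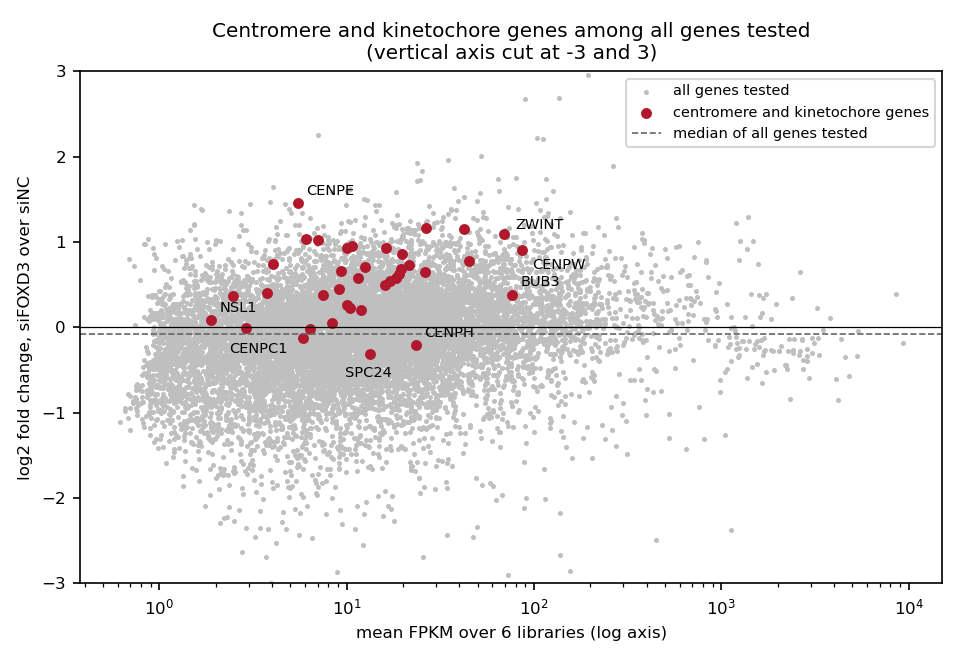
Log2 fold change (vertical axis, siFOXD3 over siNC) against mean FPKM over 6 libraries (horizontal log axis) for the 12555 genes tested (grey, axis cut) and the 38 centromere and kinetochore genes among them (red). The red points lie mostly above 0, with CENPE at 1.45, while SPC24 (-0.31) and CENPH (-0.21) lie below it.

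CENPA, the histone H3 variant that marks the centromere, had 26.4, 23.4 and 23.6 FPKM in siFOXD3 and 16.1, 14.7 and 13.7 FPKM in siNC. Every siFOXD3 library was above every siNC library. The log2 fold change was 0.69 ± 0.08 (SE; limma adjusted p = 2.20e-05), a ratio of 1.65. H3F3A and H3F3B encode H3.3, the replacement histone of ordinary chromatin. H3F3B averaged 153 ± 6.15 FPKM in siFOXD3 and 132 ± 3.43 FPKM in siNC (log2 fold change 0.21), and it was no longer called with quantile normalization. H3F3A ranged from 19.3 to 41.8 FPKM in siFOXD3 and from 12.7 to 47.5 FPKM in siNC, so its groups overlapped.

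In the CCAN, 8 of the 11 genes tested rose and 1 fell, while 2 stayed uncalled, and the median log2 fold change was 0.49. Over all genes tested 27.2% were called higher and 38.7% lower. CENPI, a subunit of the CENPH, CENPI, CENPK and CENPM module, had 8.97, 8.48 and 7.95 FPKM in siFOXD3 and 3.28, 3.83 and 3.73 FPKM in siNC. The groups stood well apart. Its log2 fold change was 1.04 ± 0.09 (SE; limma adjusted p = 3.42e-06), and 0.64 with a pseudocount of 5. CENPN, which reads the CENPA nucleosome (0.93), its partner CENPL (0.45), the histone-fold protein CENPW (0.90), CENPM (0.73), CENPK (0.49), CENPO (0.58) and CENPQ (0.37) rose as well, each without overlap between the groups. That arrangement, with siFOXD3 higher, held in 29.6% of all genes tested. CENPP, a partner of CENPO and CENPQ, was below the filter on low values, with 1.47, 0.859 and 1.15 FPKM in siFOXD3 and 0.831, 0.517 and 0.807 FPKM in siNC. Its groups did not overlap, and a fit to all listed genes put its difference at 0.33 ± 0.13 log2 units (SE; limma adjusted p = 0.0797).

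CENPH was the only one of the 38 genes called lower. It had 20.9, 23.3 and 21.2 FPKM in siFOXD3 and 26.4, 24.4 and 25.1 FPKM in siNC, and the groups did not overlap. The log2 fold change was -0.21 ± 0.06 (SE; limma adjusted p = 0.0153). With median-of-ratios scaling it was -0.12 and no longer called (limma adjusted p = 0.135), and the call was also lost without siFOXD3 replicate 1 (limma adjusted p = 0.0669) and without siFOXD3 replicate 3 (0.0565). Neither of the CCAN's links to the outer layer was called. CENPC1, the symbol used in the files for CENPC, had 2.55, 2.46 and 3.64 FPKM in siFOXD3 and 2.26, 3.38 and 3.09 FPKM in siNC. CENPT, the other recruiter of the outer layer, had 7.01, 6.07 and 6.04 FPKM in siFOXD3 and 7.002, 6.196 and 6.16 FPKM in siNC. The groups of both genes overlapped, with log2 fold changes of -0.01 ± 0.15 and -0.02 ± 0.09 (SE; limma adjusted p = 0.946 and 0.885), each turning positive with median-of-ratios scaling (0.053 and 0.0605) and quantile normalization (0.25 and 0.15).

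**Figure D3:**
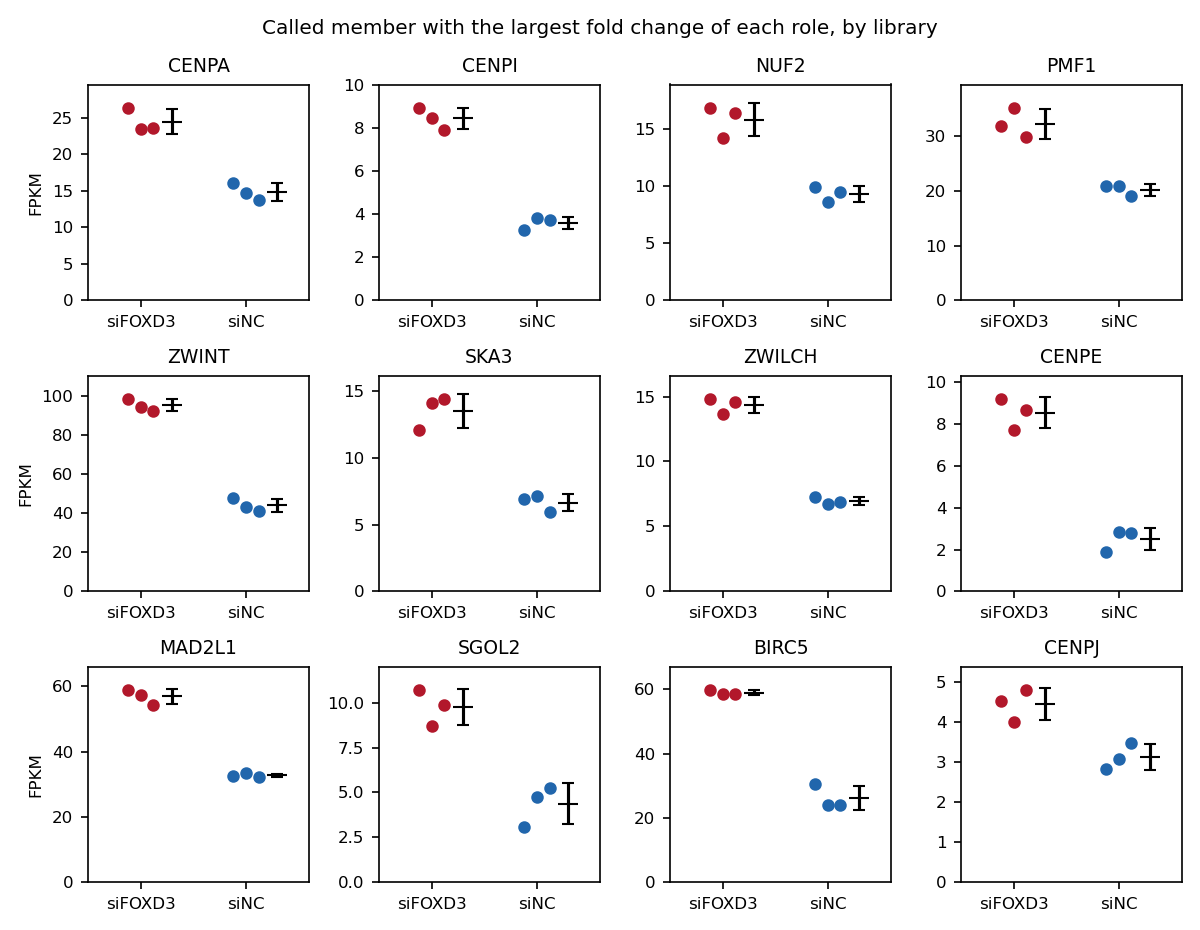
FPKM in each library (points; black bars are mean ± SD, n = 3) for the called gene with the largest fold change of each role, siFOXD3 in red and siNC in blue. In all 12 panels every siFOXD3 point lies above every siNC point, for CENPE at 7.72 to 9.20 against 1.89 to 2.83 FPKM. Since the genes were picked by call and fold change, this separation is no separate result. It was seen in 29.6% of all genes tested.

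In the NDC80 complex, a rod of NDC80 with NUF2 and SPC24 with SPC25, 3 of 4 genes rose, where 27.2% of all genes tested did. NUF2 had 16.9, 14.2 and 16.4 FPKM in siFOXD3 and 9.93, 8.60 and 9.46 FPKM in siNC, without overlap. Its log2 fold change was 0.70 ± 0.08 (SE; limma adjusted p = 3.78e-05). SPC25 (0.66) and NDC80 (0.62) stood close to it. SPC24 had 14.1, 10.5 and 10.97 FPKM in siFOXD3 and 17.7, 14.005 and 12.9 FPKM in siNC. Its groups overlapped through siFOXD3 replicate 1, and its log2 fold change of -0.31 ± 0.13 (SE) was not called (limma adjusted p = 0.0526). Without siFOXD3 replicate 1 it was called lower (-0.43, limma adjusted p = 0.0126), likewise without siNC replicate 3 (-0.40, adjusted p = 0.0300), and also with the replicate block (0.00558). Without siNC replicate 1 it was -0.18 and not called (limma adjusted p = 0.171), nor was it called with median-of-ratios scaling (-0.23, adjusted p = 0.144).

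In the MIS12 complex, which bridges the CCAN and the NDC80 complex, 2 of 4 genes rose. For this and the small sets that follow, the shares of all genes tested were 27.2% called higher and 38.7% called lower. PMF1 had 31.8, 35.2 and 29.8 FPKM in siFOXD3 and 20.8, 20.9 and 19.0 FPKM in siNC, without overlap and with a log2 fold change of 0.65 ± 0.07 (SE; limma adjusted p = 2.35e-05). MIS12 rose less, by 0.21 ± 0.08 (SE; limma adjusted p = 0.0391). That call was lost with no filter on low values (0.0578) and without siFOXD3 replicate 1, 2 or 3 or siNC replicate 1 or 2 (limma adjusted p of 0.0515 to 0.148). DSN1 had 11.2, 11.1 and 11.6 FPKM in siFOXD3 and 11.02, 9.82 and 8.02 FPKM in siNC. Its groups did not overlap, by a narrow margin, but it was not called (0.22 ± 0.10, SE; limma adjusted p = 0.0691). It was called higher without siNC replicate 1 (0.32, adjusted p = 0.00847) and with median-of-ratios scaling (adjusted p = 0.0223) or quantile normalization (0.0284). Without siNC replicate 3 its value was 0.11 and not called (limma adjusted p = 0.254). NSL1 had 1.90, 1.84 and 2.20 FPKM in siFOXD3 and 1.65, 1.77 and 2.01 FPKM in siNC, with overlapping groups (0.09 ± 0.11, SE; limma adjusted p = 0.499), and was called higher with quantile normalization (0.38, adjusted p = 0.00845).

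Both genes of the KNL1 complex rose. ZWINT, whose promoter is printed above, had 98.7, 94.4 and 92.6 FPKM in siFOXD3 and 47.7, 43.5 and 41.0 FPKM in siNC. The lowest siFOXD3 value was far above the highest siNC value. The log2 fold change was 1.10 ± 0.06 (SE; limma adjusted p = 2.61e-07), the smallest adjusted p among the 38 genes. CASC5, the older symbol of the scaffold KNL1 that carries the docking sites of the checkpoint kinase BUB1, averaged 5.29 ± 0.346 FPKM in siFOXD3 and 2.76 ± 0.452 FPKM in siNC (n = 3 each), a log2 fold change of 0.75, and 0.41 with a pseudocount of 5.

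In the SKA complex SKA3 and SKA2 rose and SKA1 was not called. SKA3 had 12.1, 14.1 and 14.4 FPKM in siFOXD3 and 6.88, 7.11 and 5.90 FPKM in siNC, without overlap. Its log2 fold change was 0.93 ± 0.09 (SE; limma adjusted p = 1.08e-05), and that of SKA2 was 0.57. SKA1, the subunit that binds the microtubule, had 5.41, 6.501 and 4.81 FPKM in siFOXD3 and 6.69, 6.52 and 5.29 FPKM in siNC. Its values overlapped between the groups, and its log2 fold change was -0.13 ± 0.12 (SE; limma adjusted p = 0.354), with the opposite sign under quantile normalization (0.052).

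In the RZZ complex, which brings dynein and the checkpoint proteins MAD1 and MAD2 to the kinetochore, ZWILCH and KNTC1 rose. ZWILCH had 14.8, 13.7 and 14.6 FPKM in siFOXD3 and 7.30, 6.69 and 6.90 FPKM in siNC, with no overlap. The log2 fold change was 0.95 ± 0.07 (SE; limma adjusted p = 1.47e-06). Its exons overlap those of RPL4 on the other strand, a ribosomal protein gene that averaged 977 ± 8.33 FPKM in siFOXD3 and 1288 ± 31.1 FPKM in siNC (n = 3 each), the opposite direction. KNTC1, the large subunit ROD, was 0.27 higher on the log2 scale. ZW10, which also works in membrane traffic, had 8.97, 8.27 and 8.34 FPKM in siFOXD3 and 8.14, 8.40 and 7.96 FPKM in siNC. Those values overlapped (0.06 ± 0.07, SE; limma adjusted p = 0.514), and ZW10 was called higher with quantile normalization alone (0.18, adjusted p = 0.0435).

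Partners of one complex can be set against each other within a library, where any scaling factor of the library cancels. The ratio of CENPH to CENPI was 2.33, 2.75 and 2.67 in siFOXD3 and 8.05, 6.36 and 6.73 in siNC. That of SPC24 to SPC25 was 1.16, 0.980 and 0.903 in siFOXD3 and 2.43, 1.76 and 2.17 in siNC. SKA1 stood to SKA3 at 0.449, 0.462 and 0.333 in siFOXD3 and 0.972, 0.918 and 0.897 in siNC. In each pair all siFOXD3 ratios were below all siNC ratios. The ratio of ZW10 to ZWILCH averaged 0.594 ± 0.0186 in siFOXD3 and 1.17 ± 0.0717 in siNC (SD, n = 3 each). CENPT and CENPW, which pair through their histone folds, stood at 0.0565 ± 0.00201 in siFOXD3 and 0.108 ± 0.00516 in siNC (n = 3 each). These pairs were picked after their values were seen, so the differences are given without a test, and they are ratios of messages, not of proteins.

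**Figure D4:**
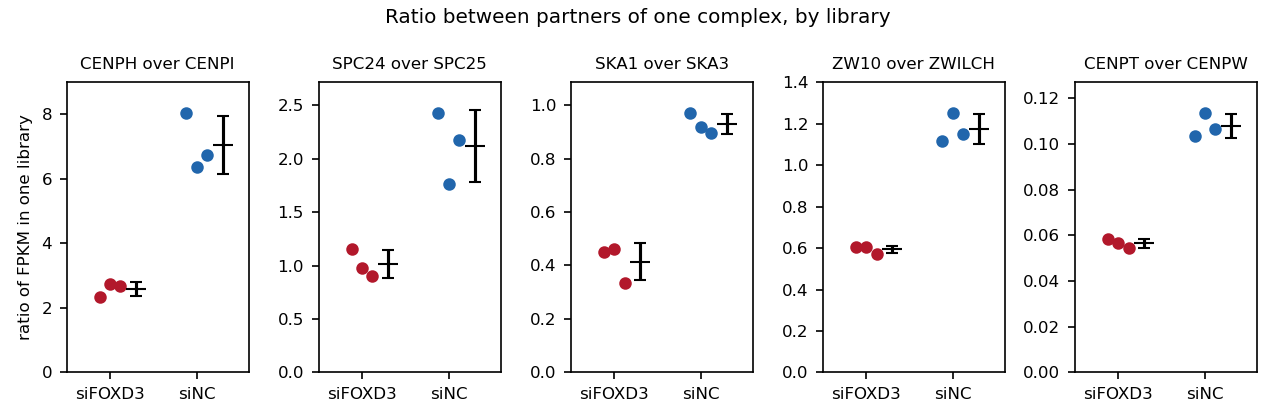
Ratio of FPKM between partners of one complex in each library (points; black bars are mean ± SD, n = 3), siFOXD3 in red and siNC in blue, for 5 pairs chosen after their values were seen. In every pair the siFOXD3 ratios lie below the siNC ratios, for CENPH over CENPI near 2.58 against 7.05 on average.

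Both genes of the fibrous corona, the outermost layer that captures microtubules early in mitosis, rose. CENPE, the kinesin motor that carries chromosomes to the spindle equator, had 9.20, 7.72 and 8.68 FPKM in siFOXD3 and 1.89, 2.83 and 2.79 FPKM in siNC. The lowest siFOXD3 value was well above the highest siNC value. The ratio was 3.41 and the log2 fold change 1.45 ± 0.12 (SE; limma adjusted p = 3.54e-06), higher than 99.7% of all genes tested, and 0.85 with a pseudocount of 5. CENPE's window held neither a CHR nor a CCAAT nor E2F letters. CENPF, a large coiled-coil protein that recruits dynein regulators, averaged 37.0 ± 0.987 FPKM in siFOXD3 and 16.1 ± 2.70 FPKM in siNC (SD, n = 3 each), a log2 fold change of 1.16. On the log2(FPKM + 1) scale these were the highest values of the 38 genes, an order that other settings changed. With a pseudocount of 5 BIRC5 (1.04) and ZWINT (1.03) stood above CENPF (1.00) and CENPE (0.85). With quantile normalization CENPI (1.23) stood above CENPF (1.18), as it did by the plain ratio of means (2.34 for CENPI and 2.30 for CENPF). Without siNC replicate 1 BIRC5 (1.26) and ZWINT (1.16) stood above CENPF (1.03).

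Both checkpoint genes rose. MAD2L1, which encodes MAD2, the inhibitor of the anaphase activator CDC20, had 59.0, 57.3 and 54.4 FPKM in siFOXD3 and 32.6, 33.4 and 32.4 FPKM in siNC. The siNC values were nearly equal and all far below the others. Its log2 fold change was 0.78 ± 0.05 (SE; limma adjusted p = 7.35e-07). BUB3, which brings BUB1 and BUBR1 to the KNL1 scaffold, rose with a log2 fold change of 0.38 ± 0.06 (SE; limma adjusted p = 0.000268).

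The shugoshins, listed as SGOL1 and SGOL2 and now named SGO1 and SGO2, differed in how firmly they were called. SGOL2 had 10.7, 8.68 and 9.86 FPKM in siFOXD3 and 3.07, 4.77 and 5.26 FPKM in siNC. The groups were apart, with siNC replicate 1 the lowest, and the log2 fold change was 1.02 ± 0.15 (SE; limma adjusted p = 0.000156), or 0.66 with a pseudocount of 5. SGOL1 had 3.32, 2.87 and 2.49 FPKM in siFOXD3 and 1.80, 2.73 and 1.59 FPKM in siNC. It was the one called gene whose groups overlapped, through siNC replicate 2, with a log2 fold change of 0.37 ± 0.15 (SE; limma adjusted p = 0.0468). The call was lost with no filter (0.0808), in limma without trend and robust (0.0555), and without siFOXD3 replicate 1 or 2 or siNC replicate 1 or 3 (limma adjusted p of 0.0938 to 0.167), and the value was 0.17 with a pseudocount of 5 and 0.66 with quantile normalization.

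All 3 genes picked here for the chromosomal passenger complex rose. BIRC5, the subunit survivin, had 59.9, 58.6 and 58.4 FPKM in siFOXD3 and 30.6, 24.1 and 24.1 FPKM in siNC. The siFOXD3 libraries were nearly equal and all above siNC, whose highest library was replicate 1. The log2 fold change was 1.15 ± 0.08 (SE; limma adjusted p = 1.50e-06). CDCA8, or borealin, followed at 0.86 and the scaffold INCENP at 0.54. AURKB, the kinase of the complex, was counted with the mitotic kinases below. It rose less, averaging 50.8 FPKM in siFOXD3 and 39.8 FPKM in siNC (0.35, limma adjusted p = 0.00110). The call of AURKB was lost against a fold of 1.2 (limma treat adjusted p = 0.271). CENPJ shares the family name but builds centrioles, the cores of the centrosome. It had 4.51, 4.003 and 4.80 FPKM in siFOXD3 and 2.83, 3.07 and 3.46 FPKM in siNC, without overlap, a log2 fold change of 0.40 ± 0.10 (SE; limma adjusted p = 0.00524). That value was 0.22 with a pseudocount of 5 and 0.64 with quantile normalization.

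Across the 38 genes tested, the groups did not overlap with siFOXD3 higher in 30 and with siFOXD3 lower in 1, where 29.6% and 41.1% of all genes tested were so arranged, and they overlapped in 7. Of the 31 tested genes with a promoter window, the 17 with a CHR had a median log2 fold change of 0.69 (-0.13 for SKA1 to 1.16 for CENPF) and the 14 without one 0.45 (-0.31 for SPC24 to 1.45 for CENPE). CENPC1 and ZW10, neither of them called, carried both a CHR and a CCAAT. With CCAAT the median was 0.65 over 20 genes and without it 0.58 over 11, and with E2F letters it was 0.65 over 8 and without them 0.58 over 23. These are descriptions of overlapping ranges.

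One siNC library differed from the other two with transcript length. Among the 10 genes whose longest GENCODE 29 transcript has at least 4000 bases, siNC replicate 1 was below the mean of siNC replicates 2 and 3 in all 10. The difference ran from -0.56 in SGOL2 to -0.013 in MAD2L1 and -0.0066 in CENPO on the log2 scale. Among the 28 shorter ones siNC replicate 1 was above that mean in 21 and below in 7. The 4000-base split was chosen after the values were seen. The deviation of this library correlated with transcript length at Spearman's rho = -0.54 across the 38 genes and -0.25 across 11183 genes with a length, points that share the same libraries. CENPE, CENPF, CASC5 and SGOL2 are long and were low in it, by 0.40, 0.39, 0.31 and 0.56 on the log2 scale, so their values without it are lower, at 1.32, 1.03, 0.64 and 0.83. BIRC5, CENPM and CENPW were high in it, and without it they stood at 1.26, 0.84 and 0.99. Without siNC replicate 1, 29 of the 38 genes were called higher and 1 lower, where 3435 and 4959 of all 12555 genes tested were. The fold change itself correlated with length at rho = 0.15 across the 38 genes.

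**Figure D5:**
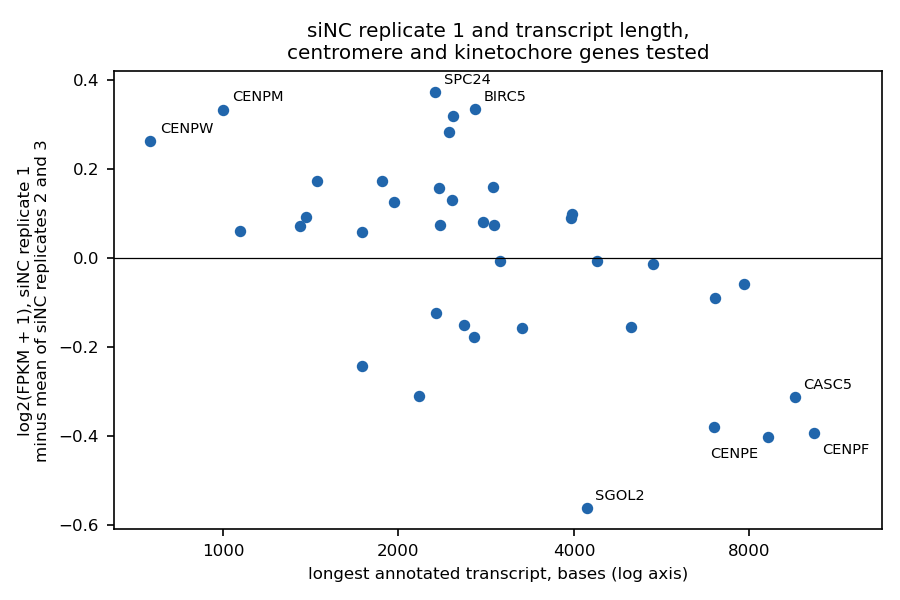
Difference in log2(FPKM + 1) between siNC replicate 1 and the mean of siNC replicates 2 and 3 (vertical axis) against the longest annotated transcript in bases (horizontal log axis) for the 38 genes tested. All 10 genes of at least 4000 bases lie below 0, from -0.56 for SGOL2 to -0.0066 for CENPO, and 21 of the 28 shorter ones lie above it.

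Other genes of the same pathways were counted by list. Of 7 genes for loading CENPA, 4 rose and 3 were not called (median log2 fold change 0.38), so that 57.1% were called, beside 65.9% of all genes tested, 27.2% of them higher. OIP5, the MIS18 beta subunit, averaged 16.0 ± 0.434 FPKM in siFOXD3 and 6.23 ± 1.45 FPKM in siNC (1.25; SD, n = 3 each), and the CENPA chaperone HJURP (0.56) rose too. The uncalled ones were MIS18A, RBBP4 and RBBP7, and in the next lists CENPV, MAD2L1BP and NCAPH2, all named after their values were seen. With median-of-ratios scaling RBBP4 (0.14, limma adjusted p = 0.0383) and RBBP7 (0.13, adjusted p = 0.0465) were called higher, and with quantile normalization CENPV was (0.33, adjusted p = 0.0189). Of 8 further centromere proteins, 6 rose and 1 fell (median 0.55). STRA13, now named CENPX, averaged 107 ± 7.74 FPKM in siFOXD3 and 39.7 ± 4.15 FPKM in siNC (1.41), and CCDC99, now SPDL1, which recruits dynein (0.88), and MLF1IP, now CENPU (0.76), rose as well. The one that fell, named here after its value was seen, was BOD1, a phosphatase inhibitor of the kinetochore, with 23.8 ± 0.737 FPKM in siFOXD3 and 34.4 ± 0.802 FPKM in siNC (-0.51; limma adjusted p = 1.54e-05).

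Of 9 checkpoint and mitotic kinase genes and their partners, 7 rose and 1 fell (median 0.79). For this and the next lists, the shares of all genes tested were 27.2% called higher and 38.7% called lower. The kinase PLK1 averaged 54.0 ± 1.85 FPKM in siFOXD3 and 21.6 ± 0.865 FPKM in siNC (1.28; SD, n = 3 each), CDC20 was at 1.46, and TRIP13, which remodels MAD2, at 0.91. MAD1L1, the MAD2 receptor at the kinetochore, was named after its value was seen. It was the one called lower (-0.24, limma adjusted p = 0.0280), a call lost with median-of-ratios scaling (-0.16, adjusted p = 0.129), with quantile normalization (-0.13, adjusted p = 0.231), without siFOXD3 replicate 3 (0.112) and without siNC replicate 1 (0.0740). All 11 genes of cohesin and separase rose (median 0.53), among them STAG1 (1.00), the separase inhibitor PTTG1 (0.94) and SMC3 (0.57). The weakest, named after its value was seen, was WAPAL, which releases cohesin (0.21, limma adjusted p = 0.0345). Its call was lost against a fold of 1.2, with the replicate block (0.0602) and without siFOXD3 replicate 1, 2 or 3 or siNC replicate 1 or 2 (limma adjusted p of 0.0552 to 0.1204), and its value was 0.37 with quantile normalization. Of 8 condensin genes, 7 rose (median 0.80), and SMC4 (1.35), SMC2 (1.09) and NCAPG (0.94) rose most.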

How the data were processed

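The authors deposited 1 table of FPKM per gene symbol for each library, the unit named per the file headers. TopHat, Cufflinks and the build hg19 are named per the submitters' processing notes. Versions, annotation and strand handling: not given in the sources used here. Groups and replicate numbers came from sample titles. Rows of one symbol were summed and an absent symbol was set to 0. Genes that reached 1 FPKM in 3 or more of the 6 libraries entered a limma fit (limma 3.58.1, R 4.3.3) of log2(FPKM + 1) (trend and robust, group as the only term, two-sided, Benjamini-Hochberg over all genes tested, called under 0.05). This scale understates the change of low genes. The fit was tested on simulated data.

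The genes and lists were chosen with earlier results of these data known. Values in every library are given, by rule, for the called gene with the largest change of each role and for genes called lower, not called or with overlapping groups; from other lists up to 3 called genes are named, or the 2 most abundant where fewer than 2 were called. Depth was estimated from steps between low FPKM values of genes with 1 transcript of 700 to 4000 bases, assuming fragments of 150 bases, so no counting intervals are given. GENCODE 29 (GRCh38) gave transcript lengths and exon overlap: 14 of the 39 genes overlap another gene, 2 on the same strand (CENPA and PMF1) and 12 on the opposite strand, whose reads cannot be told apart without strand, and 5 (CENPC1, CENPI, SKA2, BUB3 and SGOL1) have pseudogenes of their name, so these values are uncertain to that extent. Promoters are from RefSeq (GRCh38.p14). Python 3.11.15, pandas 2.3.3, numpy 2.4.6, scipy 1.17.1 and matplotlib 3.10.9 were used. The alternatives covered the pseudocount, the filter, scaling, the variance model, a fold threshold, repeated symbols, a replicate block and leaving out each library.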

Additional observations from a re-analysis of the deposited data

How the results depend on the processing

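Of the 31 called genes, 24 kept their direction and call under every one of the 16 alternatives in which they were tested, and none reversed. The other 7 were CENPH, MIS12 and SGOL1, described above, and CENPQ, KNTC1, BUB3 and CENPJ, whose calls were lost against a fold of 1.2 alone. The cause of these losses was not tested. Against that fold limma called 4297 genes of all tested (1621 higher, 2676 lower) in place of 8278 (3415 higher, 4863 lower). Every tested gene was called higher in 4 of the 12 roles, in place of 7. Those 7 roles hold only 1 to 3 genes each, so this count depends on the size of a role. The median log2 fold change of the 38 genes was 0.45 with a pseudocount of 5, 0.65 over genes with a mean of at least 5 FPKM, 0.68 with median-of-ratios scaling and 0.66 with quantile normalization, and 0.58 to 0.62 when single libraries were left out. Scaling moved the all-gene median from -0.08 to 0.00 (median-of-ratios) and 0.03 (quantile), and the share of called genes that were lower from 58.7% to 50.1% and 47.4%; the distance of the 38 genes from that median stayed between 0.64 and 0.68. Among genes that were not called, signs turned for CENPC1 (0.053 with median-of-ratios, 0.25 with quantile, -0.15 to 0.075 over left-out libraries), CENPT (0.0605, 0.15 and -0.077 to 0.037), SKA1 (0.052 with quantile), RBBP7 (-0.0698 with quantile), MAD2L1BP (0.042 with median-of-ratios) and H3F3A (-0.39 to 0.52 over left-out libraries). Leaving out single libraries gave 28 to 29 of the 38 genes called higher, where 3021 to 3435 of all 12555 genes tested were.

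Same-numbered libraries of the 2 groups had deviations that correlated at r = 0.06, 0.16 and 0.11 across genes, not above 0.1 in every pair, so the numbers were not taken to pair them, although each library correlated best with its own number. With the replicate block 30 genes were called higher and 2 lower, CENPH and SPC24 (limma adjusted p = 0.00558 for SPC24), and 8172 of all genes were called. Depth is known only as an estimate, which limits statements on genes near 1 FPKM such as CENPP.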

Other observations

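Most genes of a list for DNA replication were higher in siFOXD3. The list holds the MCM ring and GINS subunits of the helicase, the loaders CDC6 and CDT1, and PCNA, the sliding clamp of the fork. Of its 13 genes 12 were called higher and 1 lower by limma (Benjamini-Hochberg adjusted over all genes tested), with a median log2 fold change of 0.84, where 27.2% of all genes tested were called higher. GINS4, a subunit of the helicase, averaged 14.9 ± 0.369 FPKM in siFOXD3 and 4.96 ± 1.17 FPKM in siNC (SD, n = 3 each), a log2 fold change of 1.43. CDC6, which loads the MCM ring, averaged 29.7 ± 0.670 FPKM in siFOXD3 and 12.8 ± 0.341 FPKM in siNC, and the ring subunit MCM4 averaged 48.3 ± 0.425 FPKM in siFOXD3 and 22.4 ± 2.06 FPKM in siNC (n = 3 each). CDT1, the other loader of the MCM ring, ran the other way, with 12.02, 13.6 and 13.3 FPKM in siFOXD3 and 20.5, 19.4 and 19.97 FPKM in siNC. It was picked out after its value was seen, and its log2 fold change was -0.59 ± 0.07 (SE; limma adjusted p = 2.70e-05).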
